A study of Homo sapiens with 6 samples.

Results

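The genes described here are 10 transcription factors and effectors of the integrated stress response, measured in cells that received a plasmid labelled ERbeta and in cells that received an empty vector. They are DDIT3 (the factor CHOP), ATF4, ATF3, ATF5, CEBPB and CEBPG, which encode basic leucine zipper (bZIP) factors, and TRIB3, CHAC1, SESN2 and DDIT4, which encode effectors. They were taken by name, by matching each symbol to its Ensembl identifier, and all 10 were found among the 64299 genes of the deposited count table. All 10 passed the filter on low counts, which left 16243 genes tested.

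The study sequenced poly(A) RNA from HEK293T cells, a human line of embryonic kidney origin, as 3 libraries labelled ERbeta (ERbeta expression) and 3 labelled EV_Ctrl (control). All 6 came from HEK293T cells transfected with the reagent FuGene 6, the ERbeta libraries with a plasmid for ER-β and the EV_Ctrl libraries with the empty vector; the series description writes HEK293. ER-β is not defined in the labels and is taken, from background knowledge of the study, as an artificial β-sheet protein sent into the endoplasmic reticulum (ER), not as estrogen receptor beta. The labels give neither a time after transfection nor the share of cells that took up plasmid, so in this bulk RNA a large response in few cells and a small one in many cannot be told apart.

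The integrated stress response starts when kinases that sense ER stress, amino acid shortage, haem shortage or double-stranded RNA phosphorylate the initiation factor eIF2. Most translation then slows, while the mRNAs of ATF4, ATF5 and CHOP, which carry short upstream reading frames, are translated better. ATF4 pairs with C/EBP factors such as C/EBPβ and C/EBPγ on composite elements and raises CHOP, ATF3, TRIB3, CHAC1, SESN2 and genes of amino acid supply. Because ATF4 is controlled largely at translation, its mRNA level is not a measure of its protein.

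Depth spanned 13149304 to 16531368 counts a library in ERbeta, against 6833442 to 27101644 in EV_Ctrl. HEK293 cells are known for neural and renal progenitor transcripts, and NEFL, at 129 to 152 CPM (counts scaled to the library total) in ERbeta and 141 to 162 CPM in EV_Ctrl, and PAX2, at 3.65 to 7.62 CPM in ERbeta against 6.83 to 12.1 CPM in EV_Ctrl, were both detected, with ranges that overlap between the groups. LHX1, at 16.2 to 19.97 CPM in ERbeta against 21.8 to 27.4 CPM in EV_Ctrl, NEFM, at 19.2 to 20.8 CPM in ERbeta against 21.3 to 25.4 CPM in EV_Ctrl, and INA, at 43.7 to 46.8 CPM in ERbeta against 49.3 to 51.4 CPM in EV_Ctrl, lay lower in ERbeta without overlap. Scaled by library total alone, the median log2 fold change of all genes was -0.10, against -0.01 with edgeR's TMM scaling used below. With TMM 8.48% of all genes lay lower without overlap, and the share on library totals was not computed. SOX11 was at 56.7 to 87.5 CPM in ERbeta against 51.4 to 86.1 CPM in EV_Ctrl; the part of these markers in the results was not tested. Of the markers of other cell types, KRT5 had 0 reads, and PTPRC, ALB and PECAM1 had 1, 16 and 18 reads over the 6 libraries together. EPCAM, at 119 to 122 CPM in ERbeta against 88.2 to 117 CPM in EV_Ctrl, and COL1A1, at 12.8 to 21.7 CPM in ERbeta against 18.8 to 32.9 CPM in EV_Ctrl, were read in every library. EPCAM lay higher in ERbeta without overlap, as did 10.2% of all genes with TMM scaling. The libraries differed in how the level of a gene followed its GC content. Per 10 percentage points of GC, log2 CPM deviated from the mean of all libraries by -0.07, -0.02 and -0.30 in ERbeta 1, 2 and 3, and by 0.24, -0.05 and 0.20 in EV_Ctrl 1, 2 and 3. EV_Ctrl 2 thus lay with ERbeta 1 and 2 rather than with the other controls, and the fold changes of the members and of most other genes named below are also given after a correction for GC content.

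Regulatory sequence close to the start site is shown for the members whose promoter held a motif of this pathway. RefSeq promoters on GRCh38.p14 were matched for 10 of 10 members, with 19 start sites. Both strands of the 250 bases upstream of each start were searched for TGATGNAA, the core of the composite C/EBP-ATF element through which ATF4 acts. It was present in 1 promoter each of CHAC1, CEBPG and ATF3, which is 3 of the 19 member promoters (15.8%), and in 3.14% of all 35116 listed promoters. The matches lie at chr15:40953251-40953280, chr19:33374060-33374089 and chr1:212565205-212565234, all on the plus strand, and are printed with 11 bases on either side and the motif in capitals.
CHAC1: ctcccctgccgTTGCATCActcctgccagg
CEBPG: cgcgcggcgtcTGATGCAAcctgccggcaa
ATF3: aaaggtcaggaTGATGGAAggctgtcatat
The CHAC1 match reads in the reverse orientation and begins 209 bases upstream of the start at 40953471, the CEBPG match begins 42 bases upstream of the start at 33374113, and the ATF3 match 191 bases upstream of the start at 212565407. The cAMP response element TGACGTCA, held by 1.65% of listed promoters, and the ER stress response element (CCAAT and CCACG separated by 9 bases), held by 0.074%, had no exact match in these windows of any member. The CCAAT box, the binding site of NF-Y, was found in 8 of the 19 member promoters (42.1%), belonging to 7 of the 10 members, and in 32.0% of listed promoters; the ER stress response element begins with it. DDIT3, the member with the largest fold change, carries a CCAAT box in each orientation, 97 to 69 bases upstream of its start at 57520517 (chr12:57520586-57520614, minus strand, boxes in capitals).
DDIT3: CCAATgccggcgtgccactttctgATTGG
Read from its first box, DDIT3 has CCAAT, 9 bases and CCACT, which differs from the ER stress response element by 1 letter, and the reverse strand has CCAAT, 9 bases and GCACG, also 1 letter away. Such near matches, looked for after the sequence was seen, were held by both DDIT3 promoters, by no promoter of another member and by 0.874% of listed promoters. A match describes letters only; binding was not measured.

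DDIT3 encodes CHOP, a C/EBP-type factor that pairs with other C/EBP proteins and is tied to cell death under prolonged ER stress. Its level was 51.5, 48.5 and 43.8 CPM in ERbeta 1, 2 and 3, and 29.0, 28.2 and 25.4 CPM in EV_Ctrl 1, 2 and 3, on edgeR's TMM scale. Even the lowest ERbeta library exceeded the highest EV_Ctrl library, and the 3 control values lay close together. The log2 fold change, ERbeta over EV_Ctrl, was 0.80 ± 0.12 (SE, with a 95% interval of 0.53 to 1.08). In edgeR's quasi-likelihood test the unadjusted p was 0.000173, and the p adjusted by Benjamini-Hochberg over all 16243 genes was 0.235, so DDIT3 did not pass the threshold of 0.05. After GC correction its log2 fold change was 0.86 ± 0.11 with an adjusted p of 0.0561 (edgeR). DESeq2's test gave an adjusted p of 0.00014, and calls 0.321% of the genes it tests as higher in ERbeta. Without EV_Ctrl 2 edgeR's adjusted p was 0.00192, in a fit that called 13.5% of genes higher; over all alternatives tried the adjusted p ran from 0.00014 to 0.806.

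Over all genes 0 of the 10 members passed the threshold in edgeR's test, and the background was 0.0% as well, since 0 of 16243 genes passed. At an unadjusted p under 0.05 stood 4 of the 10, DDIT3, ATF3, CEBPG and SESN2, all with a positive log2 fold change, where 9.54% of all genes had such a p and were higher. For 5 of the 10 every ERbeta library lay above every EV_Ctrl library, against 10.2% of all genes, and 0 of the 10 lay below without overlap, against 8.48%. The log2 fold change was positive for 9 of 10 members and for 48.3% of all genes, with a median of 0.23 for the members and -0.01 for all genes. The 10 genes were chosen with earlier results of these data known, so these counts are descriptions.

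**Figure D1:**
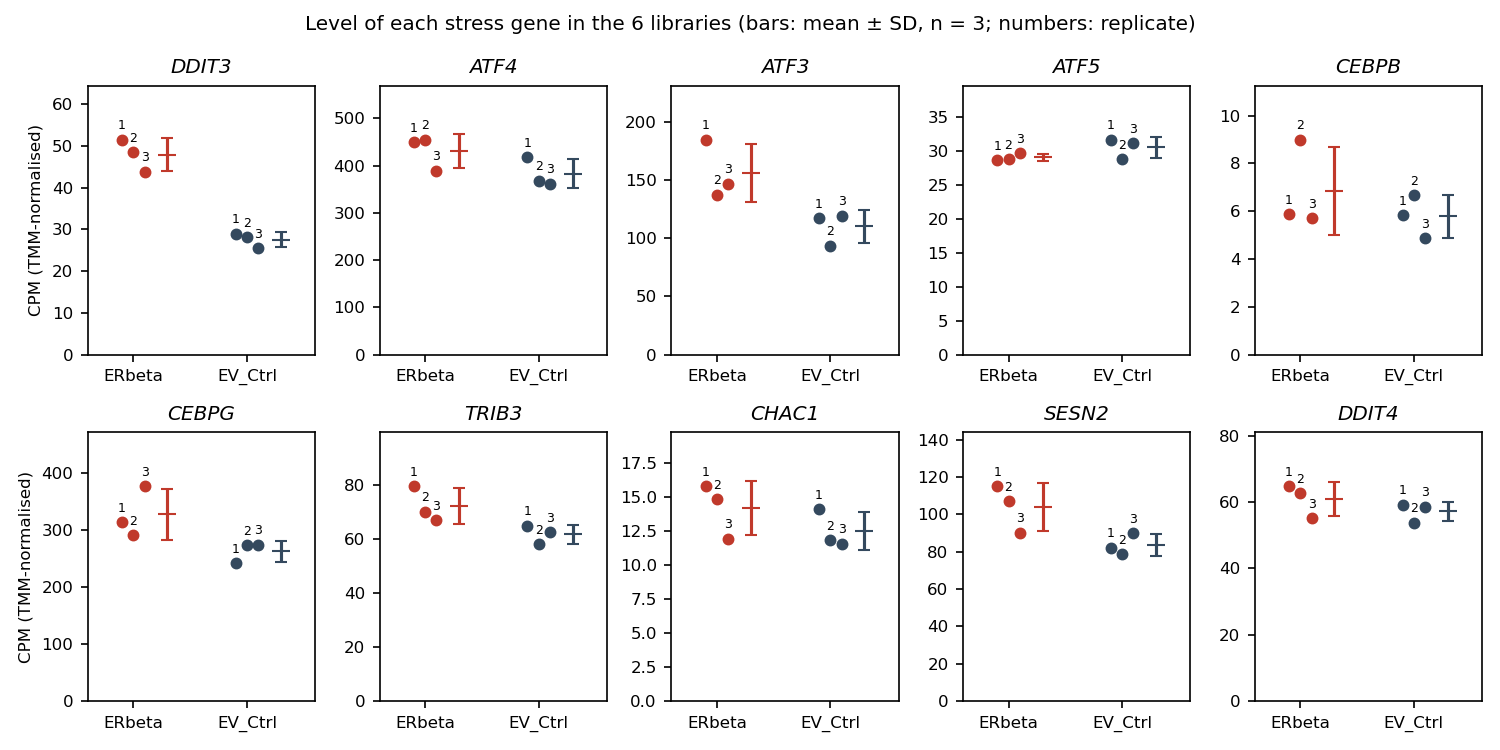
TMM-normalised CPM of the 10 stress genes (vertical axes, each from 0) in the ERbeta and EV_Ctrl libraries, with replicate numbers at the points and mean ± SD at the right of each group (n = 3). For DDIT3, ATF3, CEBPG, TRIB3 and SESN2 all ERbeta points lie above all EV_Ctrl points; for the other 5 genes the groups overlap.

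ATF4, the central factor of the response, was at 449, 455 and 389 CPM in ERbeta 1, 2 and 3, and at 418, 368 and 362 CPM in EV_Ctrl 1, 2 and 3. ERbeta 3 lay below EV_Ctrl 1, so the groups overlapped. Its log2 fold change was 0.17 ± 0.11 (SE; 95% interval -0.08 to 0.42), with an adjusted p of 0.495 in edgeR's test. With GC correction the log2 fold change was 0.30 ± 0.09, the unadjusted p 0.00855 and the adjusted p 0.431 (edgeR), and the groups no longer overlapped.

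ATF3, a stress-induced bZIP factor that mainly represses transcription as a homodimer, was at 184, 137 and 147 CPM in ERbeta 1, 2 and 3. In EV_Ctrl 1, 2 and 3 it was at 117, 93.6 and 119 CPM. All ERbeta libraries lay higher, with ERbeta 1 well above the other two and EV_Ctrl 2 the lowest control. The log2 fold change was 0.51 ± 0.15 (SE; 95% interval 0.15 to 0.86; adjusted p 0.397, edgeR), 0.51 with GC correction, 0.36 without ERbeta 1 and 0.60 without ERbeta 2. It was 0.74 when EV_Ctrl 1 and 3 were left out together, where the spread of the single remaining control is borrowed from ERbeta.

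ATF5, a close relative of ATF4 that is also controlled at translation, was the member with a negative value. It was at 28.6, 28.7 and 29.6 CPM in ERbeta 1, 2 and 3, and at 31.6, 28.7 and 31.1 CPM in EV_Ctrl 1, 2 and 3. Its log2 fold change was -0.07 ± 0.10 (SE; 95% interval -0.31 to 0.17; adjusted p 0.778, edgeR), and its sign turned with GC correction, to 0.10, and without EV_Ctrl 1 and 3, to 0.02. This interval ends below that of DDIT3, which starts at 0.53.

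The C/EBP partners of ATF4 differed in level and precision. CEBPG, a short C/EBP without a classical activation domain that forms heterodimers with ATF4, was at 313, 291 and 376 CPM in ERbeta 1, 2 and 3, and at 241, 273 and 274 CPM in EV_Ctrl 1, 2 and 3. The groups did not overlap, and ERbeta 3 was the highest. This gave a log2 fold change of 0.32 ± 0.12 (SE; 95% interval 0.03 to 0.60; adjusted p 0.397, edgeR), and 0.20 ± 0.09 with GC correction, and 0.20 without ERbeta 3, both over 1.5 times smaller.
CEBPB, which encodes the activator C/EBPβ and its inhibitory short form from 1 mRNA, was the least abundant member, at 5.87, 8.99 and 5.70 CPM in ERbeta 1, 2 and 3, and at 5.82, 6.67 and 4.88 CPM in EV_Ctrl 1, 2 and 3. These rest on 95, 138 and 71 reads in ERbeta against 42, 177 and 56 reads in EV_Ctrl. The groups overlapped, and ERbeta 2 alone lay above the rest. This gave a log2 fold change of 0.23 ± 0.23 (SE; 95% interval -0.30 to 0.76; adjusted p 0.659, edgeR), and -0.0085 without ERbeta 2, 0.38 without EV_Ctrl 2, 0.12 without EV_Ctrl 3 and 0.42 with GC correction.

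The effector TRIB3, a pseudokinase that is raised by ATF4 and CHOP and in turn binds and restrains ATF4, was at 79.4, 70.0 and 66.8 CPM in ERbeta 1, 2 and 3, and at 64.8, 57.9 and 62.3 CPM in EV_Ctrl 1, 2 and 3. The groups did not overlap, but ERbeta 3 and EV_Ctrl 1 lay within a few CPM of each other. ERbeta over EV_Ctrl, the log2 fold change was 0.23 ± 0.11 (SE; 95% interval -0.04 to 0.49; adjusted p 0.417, edgeR). It was 0.40 ± 0.09 with GC correction, with an unadjusted p of 0.00249 and an adjusted p of 0.327 (edgeR), and 0.14 without ERbeta 1.
CHAC1, an enzyme that breaks down glutathione, was at 15.8, 14.9 and 12.0 CPM in ERbeta 1, 2 and 3, and at 14.1, 11.8 and 11.6 CPM in EV_Ctrl 1, 2 and 3. The groups overlapped through ERbeta 3 and EV_Ctrl 1. Its log2 fold change was 0.19 ± 0.15 (SE; 95% interval -0.16 to 0.55; adjusted p 0.581, edgeR), 0.38 with GC correction, 0.10 without ERbeta 1 and 0.30 without ERbeta 3.

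SESN2 and DDIT4 both restrain the growth kinase complex mTORC1, SESN2 as a sestrin that senses leucine and DDIT4 (REDD1) through the TSC complex. SESN2 was at 115, 107 and 90.1 CPM in ERbeta 1, 2 and 3, and at 82.2, 78.6 and 90.0 CPM in EV_Ctrl 1, 2 and 3. The groups did not overlap, but ERbeta 3 and EV_Ctrl 3 nearly touched. The log2 fold change was 0.32 ± 0.12 (SE; 95% interval 0.03 to 0.61; adjusted p 0.397, edgeR) and 0.47 ± 0.09 with GC correction, with an unadjusted p of 0.000615 and an adjusted p of 0.174 (edgeR).
DDIT4 was at 64.8, 62.7 and 55.2 CPM in ERbeta 1, 2 and 3, and at 59.2, 53.8 and 58.6 CPM in EV_Ctrl 1, 2 and 3, with overlap. Its log2 fold change was 0.09 ± 0.11 (SE; 95% interval -0.17 to 0.35; adjusted p 0.717, edgeR), 0.24 with GC correction, and -0.0039 where scaled by library size alone.

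Most members are richer in GC than the typical tested gene. The GC content of the longest transcript was 55% or more in 7 members, highest in CEBPB at 66.2%, CHAC1 at 62.6% and TRIB3 at 60.9%, and lowest in CEBPG at 43.9%. The median was 58.8% for the members and 48.5% for all tested genes. The median log2 fold change of all genes was 0.26 in genes of under 45% GC, -0.02 at 45 to 50%, -0.09 at 50 to 55%, -0.11 at 55 to 60% and -0.17 at 60% and over. The 7 GC-rich members had a median of 0.19 without the correction and 0.38 with it, and DDIT3, ATF3 and CEBPG, the other members, had a median of 0.51 in both fits.

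**Figure D2:**
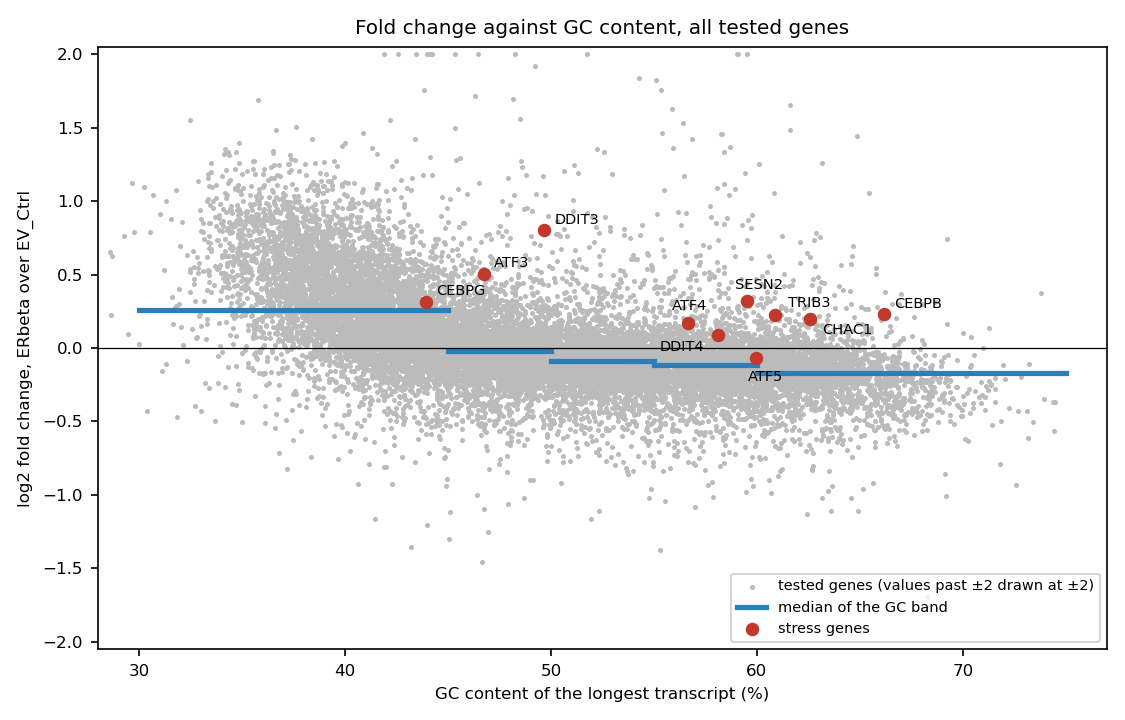
Log2 fold change (ERbeta over EV_Ctrl, edgeR) of the tested genes with a GC value against the GC content of their longest transcript, with the median of 5 GC bands as blue lines and the stress genes in red. The band medians run from 0.26 in AT-rich genes to -0.17 in GC-rich genes, and all 10 members lie above the median of their own band.

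With GC correction, 10 of 10 members had a positive log2 fold change, against 49.7% of genes, with a median of 0.39 for the members and -0.001 for all genes. For 8 of 10 the groups did not overlap and ERbeta lay above, against 9.41% of genes, the exceptions being ATF5 and CEBPB. At an unadjusted p under 0.05 stood 7 of 10 members, against 6.18% of genes, and 0 passed over all genes, where the background was 0.0%. The corrected levels of SESN2 were 6.75, 6.61 and 6.60 on the log2 CPM scale in ERbeta 1, 2 and 3, against 6.09, 6.20 and 6.25 in EV_Ctrl 1, 2 and 3. Those of TRIB3 were 6.22, 5.98 and 6.20 in ERbeta, against 5.74, 5.75 and 5.71 in EV_Ctrl. For SESN2 and TRIB3 the corrected values of ERbeta 3, which had the steepest GC trend, thus came close to another ERbeta library. ERbeta 3 stayed the lowest of the ERbeta libraries for DDIT3, at 5.35 against 5.59 and 5.52, and for ATF4, at 8.65 against 8.71 and 8.72. For ATF5 it was the highest, at 5.00 against 4.75 and 4.70. When EV_Ctrl 2 was also left out, 3 members passed the threshold (edgeR, adjusted over all genes), DDIT3 at an adjusted p of 0.000712, SESN2 at 0.0122 and TRIB3 at 0.0335, where 6.8% of genes were called higher.

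**Figure D3:**
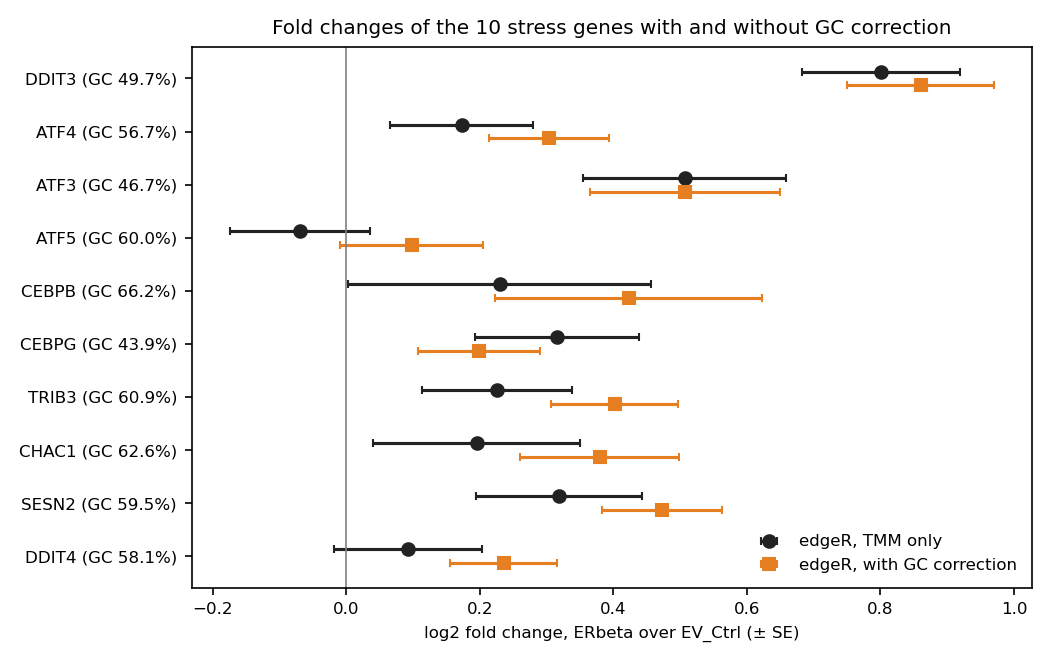
Log2 fold change ± SE of each stress gene (ERbeta over EV_Ctrl, edgeR, 6 libraries) without and with GC correction; GC content is given beside each name. The correction moved ATF5 from -0.07 to 0.10 and SESN2 from 0.32 to 0.47, left ATF3 at 0.51, and brought CEBPG down from 0.32 to 0.20.

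DDIT3 was also set against each other member within a library, a ratio of reads that no scaling between libraries enters. The GC trend of each library does enter where the GC contents differ, as for DDIT3 at 49.7% and ATF4 at 56.7%. The ratios were not corrected for it. These 9 ratios were chosen after the values were seen. Per 100 ATF4 reads there were 11.5, 10.7 and 11.3 DDIT3 reads in ERbeta 1, 2 and 3, against 6.93, 7.67 and 7.02 in EV_Ctrl 1, 2 and 3. The mean difference of this ratio was 0.63 on the log2 scale, with an exact two-sided permutation p of 0.1, the smallest that 3 against 3 libraries can give. Against 7 of the 9 other members the ratio in every ERbeta library exceeded that in every EV_Ctrl library, each with the same p. The exceptions were ATF3, where the mean log2 difference was 0.30 with an exact permutation p of 0.3, and CEBPG, where it was 0.49 with an exact permutation p of 0.2. The ratio to ATF3 was 27.9, 35.3 and 29.9 DDIT3 reads per 100 in ERbeta against 24.7, 30.1 and 21.3 in EV_Ctrl. All 9 ratios share the DDIT3 reads, so they are not independent and largely restate the difference in DDIT3. The share of all tested genes against which the DDIT3 ratio separated the groups was not computed.

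Leaving out single libraries moved the members by unequal amounts. DDIT3 stayed between 0.73 and 0.86 on the log2 fold change scale whichever of the 6 libraries was left out, and ATF3 between 0.36 and 0.60. SESN2 ranged from 0.23 to 0.41, CEBPG from 0.20 to 0.40, TRIB3 from 0.14 to 0.28, ATF4 from 0.13 to 0.24, CHAC1 from 0.10 to 0.30 and DDIT4 from 0.03 to 0.16. DDIT3 had the highest value of the 10 in each of these fits.

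**Figure D4:**
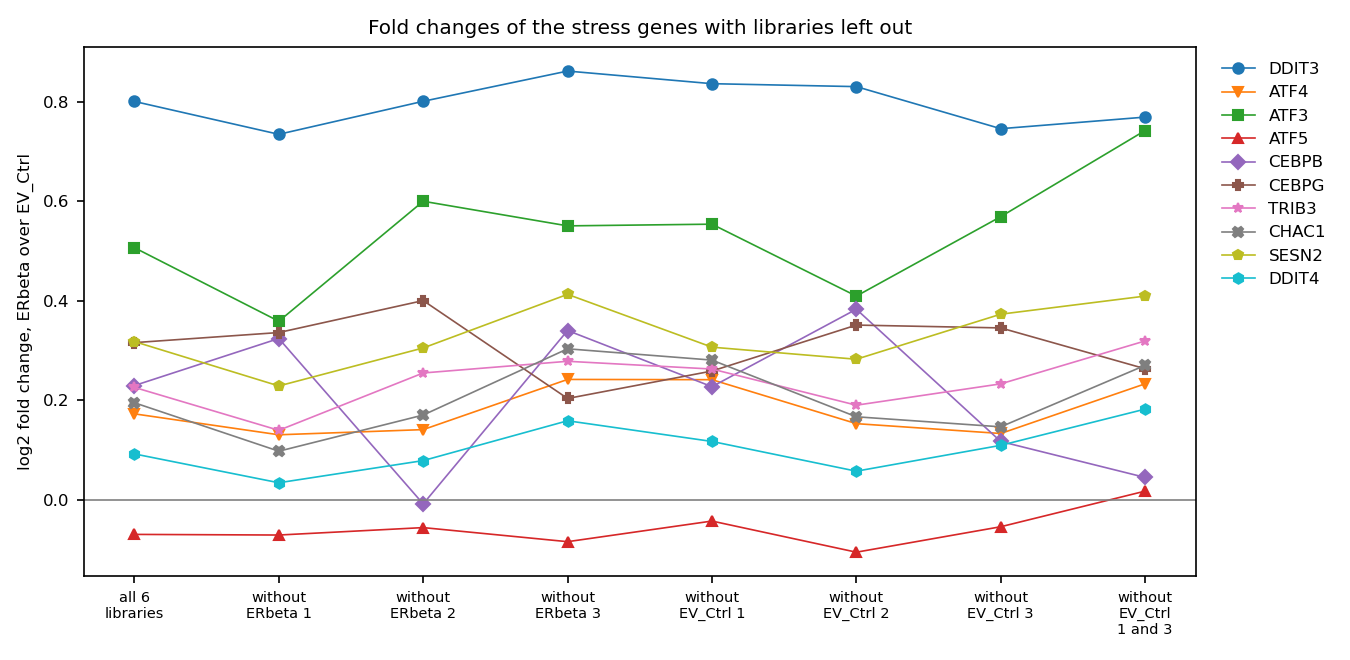
Log2 fold change of each stress gene (ERbeta over EV_Ctrl, edgeR) with all 6 libraries and with the named libraries left out; lines join values of 1 gene. DDIT3 lies at the top throughout (0.73 to 0.86 with single libraries left out), CEBPB reaches -0.0085 without ERbeta 2, and ATF5 lies below 0 except without EV_Ctrl 1 and 3.

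Levels of different genes were compared per kilobase of annotated exon. ATF4 was the most abundant member, at 172 ± 14.5 CPM per kb in ERbeta against 152 ± 12.3 CPM per kb in EV_Ctrl (SD, n = 3 each), followed by CEBPG at 74.1 ± 10.0 CPM per kb in ERbeta against 59.5 ± 4.23 CPM per kb in EV_Ctrl. These lengths are the union of all annotated exons. In ERbeta the next were ATF3 at 38.7, DDIT3 at 36.7, SESN2 at 30.2, DDIT4 at 29.6 and TRIB3 at 21.0 CPM per kb, and in EV_Ctrl DDIT4 at 27.8, ATF3 at 27.2, SESN2 at 24.2, DDIT3 at 21.1 and TRIB3 at 18.0 CPM per kb. Among these, neighbours whose libraries overlapped were ATF3 and DDIT3, and SESN2 and DDIT4, in ERbeta, and DDIT4 and ATF3, and ATF3 and SESN2, in EV_Ctrl. The order depends on the length used. With the longest transcript as length, chosen after the values were seen, DDIT3 was at 44.9 in ERbeta against 25.8 CPM per kb in EV_Ctrl, and SESN2 at 30.2 in ERbeta against 24.2 CPM per kb in EV_Ctrl, so that the mean of DDIT3 exceeded that of SESN2 in both groups. ATF3 was then at 74.2 in ERbeta against 52.3 CPM per kb in EV_Ctrl, and the ranges of ATF3 and CEBPG overlapped in ERbeta. ATF5, at 9.81 CPM per kb in ERbeta and 10.3 in EV_Ctrl, CHAC1, at 6.90 in ERbeta and 6.08 in EV_Ctrl, and CEBPB, at 3.50 in ERbeta and 2.96 in EV_Ctrl, were lowest in both groups.

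All members are protein-coding, and several share exonic sequence with a neighbour. DDIT3 lies on chromosome 12 (57516588 to 57521737, minus strand, GRCh38), where 27.2% of its exonic bases overlap MARS1, the cytosolic methionyl-tRNA synthetase gene, on the other strand, 4.44% overlap MBD6 and 8.03% a same-strand model, AC022506.1, that was not matched in the table. The strand setting of the counting is not given in the sources used here, so reads in the overlap are uncertain. MARS1 was at 321, 299 and 302 CPM in ERbeta 1, 2 and 3, and at 297, 262 and 278 CPM in EV_Ctrl 1, 2 and 3, a log2 fold change of 0.14 ± 0.09 (0.25 with GC correction), smaller than that of DDIT3. MBD6 was at 52.8, 45.9 and 19.5 CPM in ERbeta and at 48.9, 30.5 and 51.5 CPM in EV_Ctrl, with a log2 fold change of -0.14 ± 0.36 whose sign turned with GC correction, without ERbeta 3, without EV_Ctrl 3 and without EV_Ctrl 1 and 3.

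ATF4 lies on chromosome 22 (39519695 to 39522685) and CEBPG on chromosome 19 (33373330 to 33382686). ATF3 and SESN2 lie on chromosome 1 (212565334 to 212620777 and 28259527 to 28282491), CHAC1 on chromosome 15 (40952962 to 40956519) and TRIB3 on chromosome 20 (362835 to 397559), all on the plus strand and with no overlapping gene in GENCODE 29. ATF5 (chromosome 19, 49928702 to 49933935, plus strand) shares 21.2% of its exonic bases with the nucleoporin gene NUP62 on the other strand (and under 3% each with IL4I1 and MIR4751), at 147 ± 9.41 CPM in ERbeta against 159 ± 9.27 CPM in EV_Ctrl (SD, n = 3 each). CEBPB (chromosome 20, 50190734 to 50192689, plus strand) shares 11.8% with CEBPB-AS1, which had 122 reads in all. DDIT4 (chromosome 10, 72273920 to 72276036, plus strand) shares 41.2% with DDIT4-AS1, which had 0 reads.

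Of 68 other genes of the ATF4 and CHOP pathway, 67 were tested and 0 passed over all genes. The log2 fold change was positive in 48 of 67, with a median of 0.14, and 0.14 with GC correction. At an unadjusted p under 0.05, 24 were higher and 0 lower, against 9.54% and 2.88% of all genes. In 28 of them ERbeta lay above without overlap and in 1 below, against 10.2% and 8.48% of all genes. With GC correction 25 were higher and 2 lower at an unadjusted p under 0.05 (edgeR), against 995 and 718 of 16091 genes. Without that correction the 4 smallest p-values belonged to HERPUD1, EIF2AK3, FGF21 and SLC7A11. HERPUD1, an ER membrane protein of protein degradation, was at 83.1, 88.0 and 57.1 CPM in ERbeta 1, 2 and 3, and at 38.2, 29.8 and 34.7 CPM in EV_Ctrl 1, 2 and 3, a log2 fold change of 1.16 ± 0.19 (1.20 with GC correction). EIF2AK3 encodes PERK, the eIF2 kinase of the ER. It was at 62.4, 61.2 and 66.8 CPM in ERbeta, and at 40.6, 46.3 and 43.0 CPM in EV_Ctrl, a log2 fold change of 0.55 ± 0.11 (0.46 with GC correction). FGF21, a secreted hormone raised by ATF4, was near the lower limit of detection, at 1.11, 1.11 and 0.883 CPM in ERbeta and at 0.277, 0.339 and 0.435 CPM in EV_Ctrl, a log2 fold change of 1.53 ± 0.30 (1.63 with GC correction). The cystine transporter gene SLC7A11, an AT-rich transcript of 35.4% GC, had a log2 fold change of 1.05 ± 0.22, and 0.43 with GC correction.

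The list was also divided by role, in groups drawn after the values were seen. All 8 tRNA charging and export genes had a positive log2 fold change, with a median of 0.27 (7 of 8 positive with a median of 0.34 after GC correction), 7 of 8 had an unadjusted p under 0.05, against 9.54% of all genes, and in 7 ERbeta lay above without overlap, against 10.2%. With GC correction these counts were 7 and 6 of 8 (edgeR), against 6.18% and 9.41% of genes. Of 8 amino acid transporters 7 were positive with a median of 0.14 (8 of 8 with a median of 0.25 after GC correction). Of 13 genes of amino acid and one-carbon synthesis 9 were positive with a median of 0.11 (12 of 13 and 0.14 after GC correction). A group of 14 genes held those of the eIF2 kinases, eIF2 and its exchange factor, together with DNAJC3, NCK1, OMA1 and DELE1. Of these 14 genes 7 were positive and 7 negative, with a median of 0.02 (8 positive with a median of 0.01 after GC correction). Higher at an unadjusted p under 0.05 (edgeR) were 3 of 8 transporters, 4 of 13 synthesis genes and 3 of these 14. ERbeta lay above without overlap in 4, 6 and 3 of them in that order. With GC correction the counts were 5, 5 and 2 for the p, and 5, 5 and 3 for the overlap. Of 5 eIF2 phosphatase subunits 4 were positive with a median of 0.26 (0.12 with GC correction), of 3 secreted factors 2 with a median of 0.10 (0.19), and of 11 other targets 9 with a median of 0.14 (0.11). The phosphatase subunits, named here with their values in view, moved unequally with GC correction. PPP1R15A went from 0.69 ± 0.15 to 0.85 ± 0.11, with ERbeta above without overlap in both fits. PPP1CB went from 0.89 to 0.25 and PPP1R15B from 0.03 to -0.12, both with overlap after the correction. The 5 genes of apoptosis and growth arrest, some of them CHOP targets, had a median of -0.08 with 2 positive, and 0.12 with 3 positive after GC correction. Among them PMAIP1, which encodes the BH3-only protein NOXA and whose transcript is AT-rich (37.2% GC), was at 0.65 ± 0.17, and 0.12 with GC correction.

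Paralogs of the members were listed to set each member beside its relatives. Of 27, 25 were tested, 15 were positive, with a median of 0.07 (0.03 with GC correction), 6 had an unadjusted p under 0.05 and were higher, against 9.54% of all genes, and 0 passed over all genes. In 6 paralogs ERbeta lay above without overlap and in 2 below, against 10.2% and 8.48% of all genes. The smallest p-values were those of ATF1 at a log2 fold change of 1.02 ± 0.27, CREM at 0.50 ± 0.14 and CREB1 at 0.85 ± 0.25, which encode cAMP-responsive bZIP factors, and of CHAC2 at 0.52 ± 0.16, the constitutive glutathione-degrading relative of CHAC1. These 4 transcripts hold 34.2% to 40.4% GC, and with GC correction the log2 fold changes were 0.37, 0.19, 0.27 and -0.01 in that order. The following paralogs were chosen after their values were seen. On the log2 fold change scale SESN1 and SESN3 were at 0.14 ± 0.11 and 0.54 ± 0.28, and at 0.0074 and -0.0068 with GC correction, where SESN2 was at 0.47. TRIB1 and TRIB2 were at 0.06 and -0.06, and at 0.15 and 0.02 with GC correction, where TRIB3 was at 0.40. DDIT4L was at -0.05, and -0.27 with GC correction, where DDIT4 was at 0.24. CEBPA, the founding member of the C/EBP family, was at 29.5, 34.3 and 29.2 CPM in ERbeta and at 35.7, 36.0 and 35.4 CPM in EV_Ctrl, a log2 fold change of -0.20 ± 0.11, and 0.03 with GC correction. Other paralogs stayed higher. NFE2L2 at 0.72 and ATF2 at 0.92 were at 0.68 and 0.42 with GC correction, with ERbeta above without overlap. CEBPZ at 0.96 was at 0.68 with GC correction, with overlap. In all, 17 of 25 paralogs were positive with GC correction. BATF and CEBPE had 0 reads. The differences between a member and its paralogs were not tested.

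SESN2, DDIT4 and ATF3 are also known as genes that p53 raises, and DDIT4 as a gene that hypoxia raises, so both target lists were set beside them. Some p53 targets are also on the ATF4 and CHOP list or among the paralogs, so these lists are not separate. The activity of p53 in these cells was not measured. Of 25 p53 targets, 15 had a positive log2 fold change with a median of 0.04, and 3 had an unadjusted p under 0.05 and were higher (0 with GC correction), against 9.54% of all genes (6.18% with GC correction). In 1 of them ERbeta lay above without overlap, against 10.2% of all genes, and in 3, CDKN1A, FDXR and PHLDA3, below, against 8.48%. These names were picked after the values were seen, and all 3 overlapped with GC correction. ERbeta then lay above without overlap in 3 of the 25 p53 targets, against 9.41% of genes, and below in 0. Besides PMAIP1 the smallest p-values were those of CCNG1 at 0.72 ± 0.30, PPM1D at 0.30 ± 0.13 and FAS at 0.59 ± 0.26 (0.31, 0.24 and 0.23 with GC correction). Without EV_Ctrl 2 CCNG1 was at 1.19 and FAS at 1.00, and without EV_Ctrl 1 and 3 at 0.10 and 0.06. Of 22 HIF targets, 21 were tested, 14 were positive with a median of 0.04, and 3 had an unadjusted p under 0.05 and were higher (2 with GC correction), against 9.54% of all genes (6.18% with GC correction). In 3 ERbeta lay above without overlap and in 1 below, against 10.2% and 8.48%. With GC correction it lay above in 4 of the 21 HIF targets, against 9.41% of genes, and below in 0. Their smallest p-values were those of P4HA1 at 0.48 ± 0.17, BNIP3L at 0.65 ± 0.25, VEGFA at 0.26 ± 0.11 and PFKFB4 at -0.30 ± 0.16 (0.18, 0.25, 0.37 and -0.18 with GC correction). BNIP3L was at 0.99 without EV_Ctrl 2 and at 0.17 without EV_Ctrl 1 and 3, P4HA1 at 0.23 without EV_Ctrl 1 and 3, and PFKFB4 at -0.19 without ERbeta 3. In both lists 0 genes passed over all genes.

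**Figure D5:**
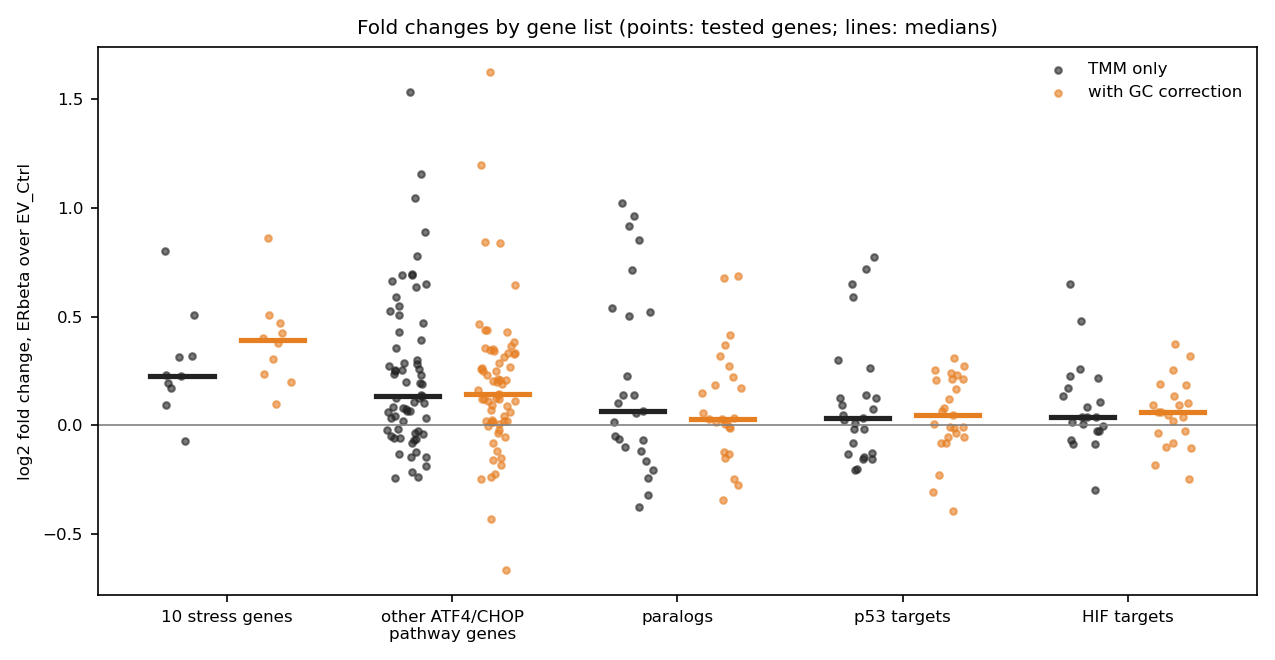
Log2 fold change (ERbeta over EV_Ctrl, edgeR) of every tested gene in 5 lists, without GC correction in black and with it in orange, with medians as lines. The medians of the stress genes are 0.23 and 0.39, those of the other pathway genes 0.14 and 0.14, and those of the p53 and HIF targets lie between 0.04 and 0.06.

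Among 11105 other genes at a mean log2 CPM of at least 3, those whose level followed DDIT3 most closely over the 6 libraries were CCDC86 (Pearson's r 0.995), DNAJC25 (0.990), HSPA5 (0.979), BUD31 (0.979) and RAC1 (0.978). The correlations are descriptions over 6 libraries that share the group difference, normalization and depth. HSPA5, which encodes the ER chaperone BiP, was at 870, 877 and 888 CPM in ERbeta 1, 2 and 3, and at 530, 536 and 501 CPM in EV_Ctrl 1, 2 and 3. Like those of DDIT3, the HSPA5 control values lay close together. CCDC86 had a log2 fold change of 0.21 ± 0.09, DNAJC25 of 0.45 ± 0.11, HSPA5 of 0.75 ± 0.08, BUD31 of 0.44 ± 0.10 and RAC1 of 0.14 ± 0.09. With GC correction they were at 0.32, 0.21, 0.73, 0.55 and 0.06 in that order, and the groups then overlapped for DNAJC25 and RAC1.

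In the authors' deposited table, which reports DESeq2 results, 9 of the 10 members had a positive log2 fold change and ATF5 a negative one, and 0 passed an adjusted p of 0.05, where 3.35% of the genes with an adjusted p were called higher. DDIT3 had the largest value there, 0.47 with an adjusted p of 0.0943, followed by SESN2 at 0.28 with 0.123, ATF3 at 0.27 with 0.362 and CEBPG at 0.26 with 0.238 in the authors' deposited table. That table gives fold changes for 8079 genes with 0 reads in all 6 libraries, so its fit used counts other than those analysed here, and its values are not directly comparable with those above.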

How the data were processed

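RNA was measured in 3 ERbeta and 3 EV_Ctrl libraries with a stranded poly(A) kit, per the labels' protocols. TopHat2, featureCounts and DESeq2 with hg38 are named in the submitters' processing notes, without versions or annotation. The deposited table holds the authors' raw counts for 64299 genes; 40995 matched a symbol. Per the file headers, the authors' DESeq2 table holds a mean signal (mean normalised count), log2 fold changes, their standard errors and Wald statistics (score columns) and p-values, used only for comparison. It rests on counts other than these, as 8079 genes with 0 reads here have a fold change there.

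Counts were filtered (filterByExpr, minimum count 10, total 15; 16243 genes, 99.8% of reads), scaled by TMM and tested with edgeR 4.0.16 in R 4.3.3, group as the only term, Benjamini-Hochberg over all genes, threshold 0.05. SEs come from the F statistic. GC correction subtracted, per library, a loess trend (span 0.5) of log2 CPM against GC percent of the longest GENCODE 29 transcript, entered as an offset and keeping the median gene's level (16091 genes). Kilobase values use the union of GENCODE 29 exons. Alternatives used DESeq2 1.42.0 and limma 3.58.1. Only the main edgeR fit was tested on simulated data, without a GC trend and with larger fold changes than those of the members. No label says whether replicates came from separate cultures; the p-values therefore cover the spread among these 6 libraries, possibly technical only. No replicates were duplicates (chi-square per degree of freedom 4.99 to 37.6). Members and lists were chosen with earlier results of these data known. Named genes were the members, up to 4 genes with the smallest p of each other list, genes overlapping a member and the 5 most like DDIT3; any other gene is marked in the text as picked with its values in view.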

Additional observations from a re-analysis of the deposited data

How the results depend on the processing

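Of 16243 genes and of the 10 members, 0 passed in edgeR's test (2018 and 4 at an unadjusted p under 0.05). DESeq2's test called 57 genes and 1 member, edgeR without a filter on low counts 51 genes and 1 member, and limma-voom 1 gene and 0 members. Leaving out each library gave 0 to 2324 genes and 0 to 1 members, the highest counts without EV_Ctrl 2. Without EV_Ctrl 2 and with GC correction, chosen after seeing the data, 1598 genes and 3 members passed. In the counts of 1 the member was DDIT3. DESeq2 size factors, library size only, a filter of at least 1 CPM in every library, GC correction, the replicate block (0 genes, 0 members), the replicate block with GC correction (0 and 0) and leaving out EV_Ctrl 1 and 3 left both counts at 0. The replicate numbers were not treated as pairs, since no label says that they mark a shared batch. Deviations from the group means correlated at 0.23, -0.14 and -0.15 for same-numbered libraries. For differently numbered libraries the correlations ran from -0.37 to 0.36, so these values do not decide whether there were pairs. The cause of the changes in the counts of genes and members was not tested.

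Over 35 named genes and their alternatives, 571 of 593 values kept the sign of the log2 fold change. Signs turned for ATF5 with GC correction (0.098), the replicate block with GC correction (0.094), without EV_Ctrl 1 and 3 (0.017) and without EV_Ctrl 2 with GC correction (0.12), for CEBPB without ERbeta 2 (-0.0085, leaving out single libraries -0.0085 to 0.38) and for DDIT4 with library size only (-0.0039). In the order GC correction, block with GC correction and without EV_Ctrl 2 with GC correction, they turned for CHAC2 (-0.010, -0.017 and -0.11), NUP62 (0.039, 0.037 and 0.050) and CEBPB-AS1 (0.045, 0.058 and 0.0099), the last also without EV_Ctrl 1 and 3 (0.081) and, leaving out single libraries, over -0.15 to 0.14. MBD6 turned with GC correction (0.039) and without EV_Ctrl 1 and 3 (0.38), and ran from -0.42 to 0.19 leaving out single libraries. In the smallest library depth limits FGF21 (2 reads), CEBPB-AS1 (8) and, among the members, CEBPB (42).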
